A study of Mus musculus with 4 samples.

Results

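The Fc receptor genes examined here were *Fcgr1*, *Fcgr3*, *Fcgr4*, *Fcgr2b*, *Fcer1g* and *Fcgrt*. They were chosen by name as the Fcγ receptors of the mouse, the signaling chain of the activating receptors and the neonatal Fc receptor. They are 6 of the 25655 genes in the files, and all 6 had a mean of more than 10 TPM (length-normalized transcript units scaled to equal library sums) over the 4 libraries, as did 6523 genes in all. RNA-Seq was performed on neutrophils sorted on day 3 from the hearts of WT and *Cd300a-/-* mice that had undergone myocardial infarction and reperfusion (MI/R), by transient occlusion of the left anterior descending coronary artery. CD300a is an inhibitory receptor of myeloid cells. The comparisons ask how its loss and the surface level of the lectin SiglecF go with gene expression in cardiac neutrophils. WT mice were C57BL/6J, *Cd300a-/-* mice were on the C57BL/6 background, and the methods name adult males for this model. Every group underwent MI/R, and no library came from unoperated mice. Cells in the CD45.2+CD11b+Ly6G+ gate were separated into SiglecF hi and SiglecF lo neutrophils, which the labels call SiglecF-positive and SiglecF-negative. The 4 groups were therefore WT SiglecF hi, *Cd300a-/-* SiglecF hi, WT SiglecF lo and *Cd300a-/-* SiglecF lo neutrophils, each with 1 library from 8 pooled hearts. No group has a replicate, so no difference has a replicate check and no P value is given.

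Summed over all genes, the SiglecF hi libraries held 19278243 (WT) and 17632989 (*Cd300a-/-*) counts. The SiglecF lo libraries held 9631901 (WT) and 10988619 (*Cd300a-/-*). Levels are TPM, which is per transcript length and can be compared between genes. Differences are log2((TPM + 1) ratios) between libraries, a scale that understates the change of low genes, and a gene is called higher or lower past 0.5. Intervals are 95% counting intervals from the counts, and they cover counting error only.

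Fcγ receptors bind the Fc part of immunoglobulin G on immune complexes and opsonized particles. The activating receptors FcγRI, FcγRIII and FcγRIV signal in the mouse through the Fc receptor γ chain, the product of *Fcer1g*, whose tyrosine-based activation motif (ITAM) recruits the kinase Syk. FcγRIIB carries an inhibitory motif (ITIM) in its own tail that recruits the phosphatase SHIP1, and neutrophils and macrophages are known to carry both kinds of receptor. The neonatal Fc receptor, encoded by *Fcgrt*, pairs with β2-microglobulin and returns immunoglobulin G from endosomes to the cell surface.

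*Cd300a* reached 162.9 and 127 TPM in the SiglecF hi and SiglecF lo libraries of WT mice, against 0.74 and 1.06 TPM in those of *Cd300a-/-* mice. *Siglecf* was at 354 and 405 TPM in the WT and *Cd300a-/-* SiglecF hi libraries and at 11.3 and 15.3 TPM in the SiglecF lo libraries. Both genes followed the labels. The 10 neutrophil markers, among which *S100a9* was the most abundant, summed to 27550 and 32707 TPM in the WT and *Cd300a-/-* SiglecF hi libraries. They summed to 155537 and 205241 TPM in the WT and *Cd300a-/-* SiglecF lo libraries. *Ly6g*, which encodes the sorting antigen, was at 11.1 and 41.9 TPM in the WT and *Cd300a-/-* SiglecF hi libraries, against 330 and 889 TPM in the SiglecF lo libraries. The 14 macrophage markers, led by *Apoe*, summed to 16298 and 15246 TPM in these SiglecF hi libraries, and to 5731 and 5015 TPM in the SiglecF lo libraries. Neutrophil markers were therefore detected in all 4 libraries, at lower sums in the SiglecF hi libraries, where the summed macrophage markers were higher. None of the 14 macrophage markers was at 0.

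In each library the order of the 3 highest members was the same. *Fcer1g* came first, followed by *Fcgr3* and then *Fcgr4*, and no counting intervals overlapped among these 3. In WT SiglecF hi neutrophils *Fcgr2b*, *Fcgr1* and *Fcgrt* followed in this order, and in *Cd300a-/-* SiglecF hi neutrophils *Fcgrt* lay above *Fcgr1*. In WT SiglecF lo neutrophils *Fcgr1* ranked above *Fcgr2b* and *Fcgrt*, whose intervals overlapped. In *Cd300a-/-* SiglecF lo neutrophils *Fcgr1* was the lowest member. There the intervals of *Fcgr2b* and *Fcgrt* overlapped, and so did those of *Fcgrt* and *Fcgr1*. The highest level of a member was 1.13 times its lowest for *Fcer1g*, 1.17 times for *Fcgr3*, 1.67 times for *Fcgr4*, 2.00 times for *Fcgrt*, 2.44 times for *Fcgr2b* and 2.47 times for *Fcgr1*.

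**Figure D1:**
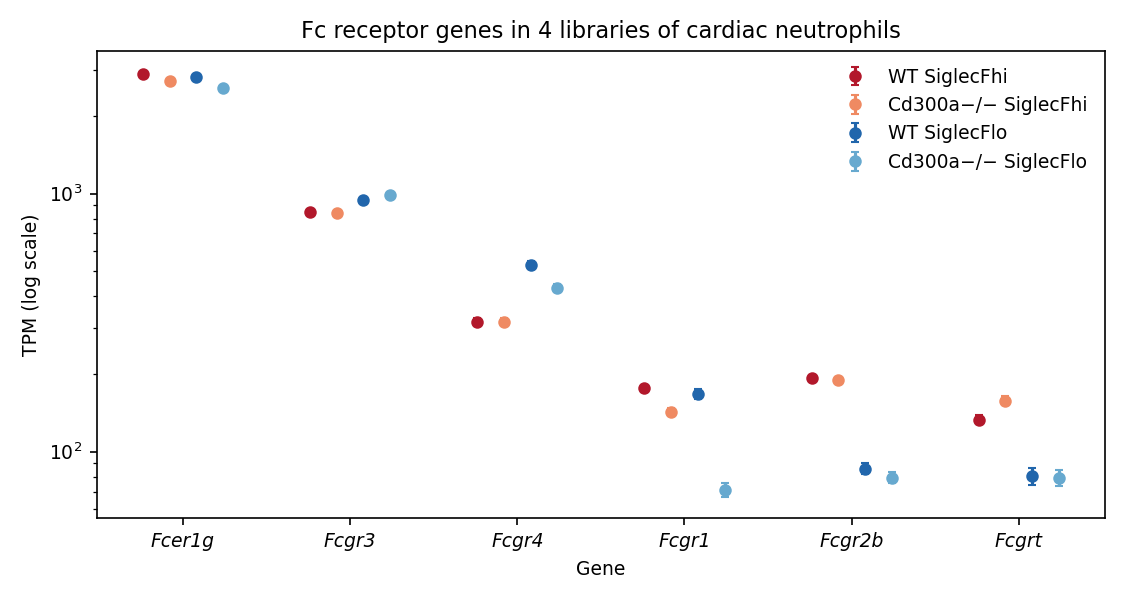
TPM (log axis) of the 6 Fc receptor genes in the 4 libraries, 1 point per library, with 95% counting intervals as bars. *Fcer1g* lies highest in every library, *Fcgr2b* and *Fcgrt* lie higher in both SiglecF hi libraries, and *Fcgr1* is lowest in *Cd300a-/-* SiglecF lo neutrophils at 71.1 TPM.

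Between genotypes, *Fcgr1* in SiglecF lo neutrophils was the only member past 0.5. Other members had smaller differences beyond counting error, which are given below. None of the 6 members was past 0.5 in SiglecF hi neutrophils, where 6.78% of all 6523 genes were. In SiglecF lo neutrophils 1 of 6 was, and it was lower in *Cd300a-/-*. Of all genes, 36.3% were past 0.5 in either direction in that comparison and 19.9% were lower. With 6 members, these counts are too small to set the members apart from all genes. The median of all genes was 0.04 for SiglecF hi and -0.02 for SiglecF lo cells.

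Between subsets, most genes were higher in SiglecF hi neutrophils on the TPM scale. The median log2 ratio of all genes, SiglecF hi against SiglecF lo, was 0.53 in WT and 0.61 in *Cd300a-/-* neutrophils. In WT, 51.9% of genes were higher and 7.47% lower in SiglecF hi, and in *Cd300a-/-* neutrophils 56.6% were higher and 7.97% lower. With each ratio centred on that median, 19.3% of genes were higher and 20.9% lower in WT, and 21.2% were higher and 23.6% lower in *Cd300a-/-*. On the TPM scale 2 of 6 members (*Fcgr2b* and *Fcgrt*) were higher and 1 (*Fcgr4*) was lower in WT SiglecF hi neutrophils, and 3 of 6 (*Fcgr1*, *Fcgr2b* and *Fcgrt*) were higher in *Cd300a-/-*. Relative to the median of all genes, *Fcgr2b* was the 1 member higher in SiglecF hi neutrophils of both genotypes. *Fcgr3* and *Fcgr4* were lower in both genotypes, and *Fcer1g* was lower past 0.5 in *Cd300a-/-*. In these bulk samples, fewer cells of a type and less RNA per cell cannot be told apart.

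*Fcgr1* (ENSMUSG00000015947) encodes FcγRI, the high-affinity receptor CD64, and lies on the minus strand of chromosome 3 from 96190225 to 96201285 (GRCm39, as for all positions from the files). It had 175.6 TPM (3990 counts) with WT and 141.9 TPM (2885 counts) with *Cd300a-/-* SiglecF hi neutrophils. For SiglecF lo neutrophils the values were 167 TPM (2227 counts) with WT and 71.1 TPM (1044 counts) with *Cd300a-/-* cells. The *Cd300a-/-* SiglecF lo library stood below the other 3. The log2 ratio of *Cd300a-/-* to WT was -1.22 (-1.33 to -1.12) in SiglecF lo neutrophils, lower than in WT by a factor of 2.35. Of all genes 3.66% had a ratio at or below it. In SiglecF hi neutrophils the ratio was -0.31 (-0.37 to -0.24), not past the threshold, and 9.43% of genes lay at or below it. The ratio in SiglecF lo minus that in SiglecF hi neutrophils was -0.92 (-1.04 to -0.79), with 7.47% of genes at or below it. The same difference was 0.07 (0.01 to 0.13) for *Fcgr3*, -0.30 (-0.40 to -0.20) for *Fcgr4* and -0.27 (-0.43 to -0.10) for *Fcgrt*, so 4 of 6 members were beyond counting error, as were 69.6% of all genes. Of all genes 59.7%, 31.4% and 33.7% lay at or below the values of these last 3. The difference was -0.09 (-0.20 to 0.02) for *Fcgr2b* and -0.05 (-0.10 to 0.00) for *Fcer1g*. Between subsets the log2 ratio of *Fcgr1* was 0.07 (-0.01 to 0.14) in WT, where its direction turned to -0.46 relative to the median of all genes, -0.47 with TMM-scaled CPM and -0.54 with DESeq2-scaled CPM. In *Cd300a-/-* neutrophils it was 0.99 (0.88 to 1.09), and 0.37 relative to the median of all genes, no longer past 0.5.

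The library in which *Fcgr1* was lowest also differed in other measured genes. The 6 endothelial markers, with *Pecam1* the most abundant, summed to 80.5 and 103 TPM in the WT and *Cd300a-/-* SiglecF hi libraries and 147 and 52.0 TPM in the SiglecF lo libraries. All 5 tested were lower with *Cd300a-/-* than with WT SiglecF lo cells, with a median of -1.27. Of all genes, 19.9% were lower in this comparison. The 6 cardiomyocyte markers, led by *Mb*, summed to 44.6, 77.2, 38.4 and 14.1 TPM in this order, and 2 of 3 tested were lower in that comparison, with a median of -0.86. Sums of the 5 dendritic cell markers, led by *Cd209a*, were 4.51, 7.03, 12.8 and 1.61 TPM. Among 7 eosinophil markers *Epx* was at 0, and the sums of 117, 119, 173 and 87.9 TPM were mostly *Ear2*, with a log2 ratio of -0.98. The sums of these lists were thus lowest in the same library as *Fcgr1*. So were those of the macrophage, fibroblast and NK cell markers, at 5015, 665 and 0 TPM. Not every marker was lower. Of the dendritic cell markers, *Cd209a* and *Clec9a* were lower with *Cd300a-/-* than with WT SiglecF lo cells, at -3.52 and -1.27. *Flt3* was at 0.42 (0.15 to 0.69), *Xcr1* at 0.40 (0.16 to 0.64) and *Zbtb46* at 0.08 (-0.25 to 0.41), none past 0.5. *Flt3* and *Xcr1* had 0 counts with WT and 7 and 8 counts with *Cd300a-/-* SiglecF lo cells. No dendritic cell marker had a mean TPM over 10. Among eosinophil markers also under that limit, *Ccr3* was at 0.16 (-0.30 to 0.62) and *Il5ra* at -0.47 (-0.86 to -0.07), neither past 0.5. The 5 monocyte markers, with *Ly6c2* the most abundant, summed to 692, 563, 1154 and 971 TPM in the same order, and 1 of 4 tested was lower, with a median of -0.31. No endothelial or monocyte marker was at 0. Of the 14 macrophage markers 2 were higher and 3 lower with *Cd300a-/-* than with WT cells of the SiglecF lo subset, with a median of -0.07. These counts lay near the 16.4% of all genes that were higher and the 19.9% that were lower. Of the neutrophil markers 5 of 10 were higher and none lower, with a median of 0.54, where 16.4% of all genes were higher. Between genotypes in SiglecF hi neutrophils 5 of 10 were also higher and none lower, with a median of 0.74, where 3.31% of all genes were higher. The part of other cells in the *Fcgr1* result was not tested.

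*Fcgr3* (ENSMUSG00000059498), on the minus strand of chromosome 1 from 170878743 to 170892504, encodes FcγRIII (CD16), a low-affinity activating receptor. It had 847 TPM (12109 counts) with WT and 843 TPM (10781 counts) with *Cd300a-/-* SiglecF hi neutrophils. For SiglecF lo neutrophils the values were 947 TPM (7928 counts) with WT and 989 TPM (9132 counts) with *Cd300a-/-* cells. It was the most abundant receptor gene in each library, with 55.2%, 56.4%, 54.7% and 63.0% of the summed TPM of the 4 Fcγ receptors in that order. The log2 ratio of *Cd300a-/-* to WT was -0.01 (-0.05 to 0.03) for SiglecF hi and 0.06 (0.02 to 0.11) for SiglecF lo cells. SiglecF hi against SiglecF lo gave -0.16 (-0.20 to -0.12) in WT and -0.23 (-0.27 to -0.19) in *Cd300a-/-* neutrophils. Relative to the median of all genes these became -0.69 and -0.84, past the threshold.

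*Fcgr4* (ENSMUSG00000059089) lies on the plus strand of chromosome 1 from 170846489 to 170857330 and encodes FcγRIV, an activating receptor of neutrophils, monocytes and macrophages. It had 318 TPM (3506 counts) with WT and 319 TPM (3148 counts) with *Cd300a-/-* SiglecF hi neutrophils. For SiglecF lo neutrophils the values were 529.6 TPM (3418 counts) with WT and 431 TPM (3065 counts) with *Cd300a-/-* cells. Both SiglecF lo libraries lay above both SiglecF hi libraries. SiglecF hi over SiglecF lo gave a log2 ratio of -0.73 (-0.80 to -0.67) in WT and -0.43 (-0.50 to -0.36) in *Cd300a-/-* neutrophils, or -1.26 and -1.04 relative to the median of all genes. On the TPM scale 4.65% of genes in WT and 8.91% in *Cd300a-/-* had a ratio at or below these. Between genotypes the ratio was -0.30 (-0.37 to -0.23) for SiglecF lo cells. For SiglecF hi cells it was 0.00 (-0.06 to 0.07), with a sign that turned under TMM-scaled CPM (-0.01), DESeq2-scaled CPM (-0.00037) and centring (-0.03), and neither was past 0.5.

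*Fcgr2b* (ENSMUSG00000026656), on the minus strand of chromosome 1 from 170786186 to 170804116, encodes FcγRIIB (CD32), the inhibitory receptor. It had 193 TPM (6461 counts) with WT and 189.8 TPM (5681 counts) with *Cd300a-/-* SiglecF hi neutrophils. For SiglecF lo neutrophils the values were 85.9 TPM (1681 counts) with WT and 79.2 TPM (1710 counts) with *Cd300a-/-* cells. The SiglecF hi libraries lay above the SiglecF lo libraries in both genotypes. The level in SiglecF hi neutrophils was 2.25 times that in SiglecF lo neutrophils in WT and 2.40 times in *Cd300a-/-*. The log2 ratios were 1.16 (1.08 to 1.24) and 1.25 (1.17 to 1.33), with 85.7% and 83.9% of genes at or below them, and 0.63 and 0.64 relative to the median of all genes. TMM-scaled and DESeq2-scaled CPM kept them between 0.56 and 0.68. Between genotypes the ratio was -0.03 (-0.08 to 0.03) for SiglecF hi and -0.12 (-0.21 to -0.02) for SiglecF lo cells.

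The summed macrophage markers were higher in the same 2 libraries as *Fcgr2b*, with 11 of 14 genes higher and 1 lower in WT SiglecF hi neutrophils and 12 of 14 higher in *Cd300a-/-*, where 51.9% and 56.6% of all genes were higher. Their median log2 ratios were 1.38 and 1.12. Centred, 10 of 14 were higher in WT and 7 of 14 in *Cd300a-/-*, with 1 lower in each and medians of 0.86 and 0.51. Of all genes, 19.3% (WT) and 21.2% (*Cd300a-/-*) were higher when centred, and 20.9% and 23.6% were lower. The 5 fibroblast markers summed to 1546 and 1109 TPM in the WT and *Cd300a-/-* SiglecF hi libraries, and to 718 and 665 TPM in the WT and *Cd300a-/-* SiglecF lo libraries. *Dcn* was the most abundant of them, and none was at 0. Of 4 tested, 4 were higher in WT and 3 in *Cd300a-/-* SiglecF hi neutrophils, with medians of 1.11 and 0.83, but centred 3 were in WT and none in *Cd300a-/-*, with medians of 0.59 and 0.21. Of 3 cardiomyocyte markers tested, 2 were higher in WT and 3 in *Cd300a-/-* SiglecF hi neutrophils, with medians of 0.64 and 1.60. Centred, 1 was lower in WT and 2 were higher in *Cd300a-/-*. Of 5 endothelial markers tested, 4 were lower in WT but 5 higher in *Cd300a-/-*, with medians of -0.99 and 0.72. Centred, 5 were lower in WT and 1 was higher in *Cd300a-/-*. The part of any of these cells in the *Fcgr2b* result was not tested. B cells are known for *Fcgr2b* as well. The 5 B cell markers, of which *Cd79b* was the most abundant, summed to 8.69 and 14.4 TPM in the WT and *Cd300a-/-* SiglecF hi libraries. In the WT and *Cd300a-/-* SiglecF lo libraries the sums were lower, at 5.20 and 6.73 TPM. No B cell marker had a mean TPM over 10, and the part of B cells was not tested either.

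The balance of activating to inhibitory receptor transcripts was taken within each library, where the scaling between libraries has no effect. The summed TPM of *Fcgr1*, *Fcgr3* and *Fcgr4* was 6.94 times (6.74 to 7.14) that of *Fcgr2b* in WT SiglecF hi and 6.87 times (6.66 to 7.08) in *Cd300a-/-* SiglecF hi neutrophils. It was 19.1 times (18.2 to 20.1) in WT SiglecF lo and 18.8 times (17.9 to 19.8) in *Cd300a-/-* SiglecF lo neutrophils. The ratio was thus lower in SiglecF hi than in SiglecF lo neutrophils of both genotypes, by a factor of 2.76 in WT and 2.74 in *Cd300a-/-*. On the log2 scale these differences were -1.46 (-1.55 to -1.38) and -1.46 (-1.54 to -1.37). The difference between genotypes was -0.01 (-0.07 to 0.04) for SiglecF hi and -0.02 (-0.13 to 0.08) for SiglecF lo cells, within counting error. *Fcgr2b* made up 12.6% and 12.7% of the summed receptor TPM in the WT and *Cd300a-/-* SiglecF hi libraries, and 4.96% and 5.04% in the SiglecF lo libraries.

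Each activating receptor had a lower ratio to *Fcgr2b* in SiglecF hi neutrophils. *Fcgr4* was at 1.65 and 1.68 times *Fcgr2b* in the WT and *Cd300a-/-* SiglecF hi libraries and at 6.17 and 5.44 times in the SiglecF lo libraries. *Fcgr3* was at 4.38, 4.44, 11.0 and 12.5 times in the same order. *Fcgr1* was at 0.91 (0.87 to 0.95), 0.75 (0.71 to 0.78), 1.95 (1.83 to 2.08) and 0.90 (0.83 to 0.97) times *Fcgr2b*. WT SiglecF lo neutrophils were thus the 1 library with more *Fcgr1* than *Fcgr2b*. In *Cd300a-/-* SiglecF lo neutrophils the share of *Fcgr1* among the receptors was 4.53%, against 9.68% in WT, and that of *Fcgr3* was higher. Without *Fcgr3* in the sum, the log2 difference between genotypes in SiglecF lo neutrophils was -0.36.

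**Figure D2:**
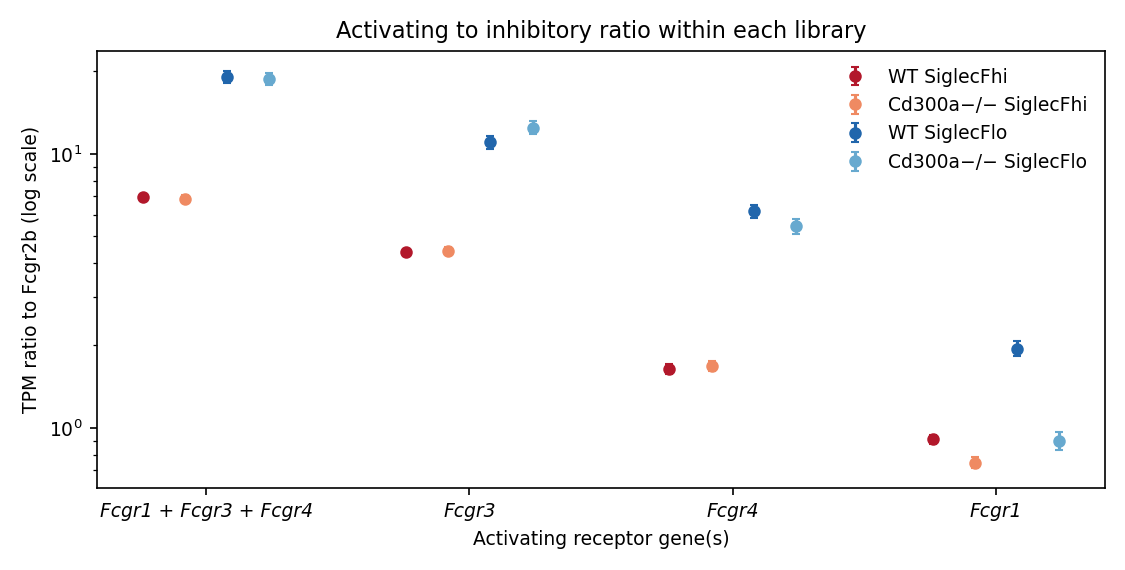
Ratio of the TPM of activating receptor genes to that of *Fcgr2b* within each library (log axis), for the sum of the 3 genes and for each gene, with 95% counting intervals. The summed ratio is 6.94 and 6.87 in the SiglecF hi libraries and 19.1 and 18.8 in the SiglecF lo libraries, and the genotypes separate most for *Fcgr1* in SiglecF lo neutrophils.

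*Fcgr2b* and *Fcgr3* have near-identical stretches, so reads may be split between them. Their longest coding sequences in GENCODE M21, of 1020 and 801 bases, share an exact run of 129 bases. Of all windows of 75 bases, 9.94% of those in *Fcgr2b* and 12.9% of those in *Fcgr3* were found in the other gene, and with windows of 35 bases 21.6% and 27.8% were. The other pairs of the 4 receptors shared no run over 14 bases. How the counting placed such reads is not given in the sources used here. The shares of windows do not bound the error, since *Fcgr3* had more counts than *Fcgr2b* in every library. Reads of *Fcgr3* placed on *Fcgr2b*, or the reverse, could move the level of *Fcgr2b* and the ratios to it by more than these shares, and the size of this was not tested.

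*Fcer1g* (ENSMUSG00000058715), on the minus strand of chromosome 1 from 171057141 to 171061934, encodes the γ chain. It had 2917 TPM (19146 counts) with WT and 2734 TPM (16062 counts) with *Cd300a-/-* SiglecF hi neutrophils. For SiglecF lo neutrophils the values were 2836 TPM (10899 counts) with WT and 2571 TPM (10899 counts) with *Cd300a-/-* cells. The gene ranked between 36 and 43 among all genes in the 4 libraries. The log2 ratio of *Cd300a-/-* to WT was -0.09 (-0.12 to -0.06) for SiglecF hi and -0.14 (-0.18 to -0.10) for SiglecF lo cells. Between subsets it was 0.04 (0.01 to 0.07) in WT and 0.09 (0.05 to 0.12) in *Cd300a-/-* neutrophils, and the direction turned to -0.49 and -0.52 relative to the median of all genes, to -0.50 and -0.49 with TMM-scaled CPM and to -0.57 and -0.58 with DESeq2-scaled CPM. Within the libraries, *Fcer1g* was at 2.18 (2.13 to 2.22) and 2.10 (2.05 to 2.14) times the summed activating receptors in the WT and *Cd300a-/-* SiglecF hi libraries. It was at 1.72 (1.68 to 1.77) times in both SiglecF lo libraries. Transcripts of the γ chain thus exceeded the sum of these 3 receptor genes in each library, by more in SiglecF hi neutrophils.

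*Fcgrt* (ENSMUSG00000003420) lies on the minus strand of chromosome 7 from 44742414 to 44753275. It had 133 TPM (2081 counts) with WT and 157.7 TPM (2207 counts) with *Cd300a-/-* SiglecF hi neutrophils. For SiglecF lo neutrophils the values were 80.2 TPM (734 counts) with WT and 78.8 TPM (796 counts) with *Cd300a-/-* cells. Both SiglecF hi libraries were higher. SiglecF hi against SiglecF lo gave a log2 ratio of 0.72 (0.60 to 0.84) in WT and 0.99 (0.88 to 1.11) in *Cd300a-/-* neutrophils, but 0.20 and 0.38 relative to the median of all genes, neither past 0.5. The ratio of *Cd300a-/-* to WT was 0.24 (0.16 to 0.33) for SiglecF hi and -0.02 (-0.17 to 0.12) for SiglecF lo cells, where its direction turned to 0.03 with DESeq2-scaled CPM. *B2m*, the light chain, was at 7629 and 7497 TPM in the WT and *Cd300a-/-* SiglecF hi libraries and 7295 and 4603 TPM in the SiglecF lo libraries. The log2 ratio of *Cd300a-/-* to WT was -0.66 in SiglecF lo and -0.03 in SiglecF hi cells, and that between subsets was 0.06 in WT, where the direction turned to -0.46 when centred, and 0.70 in *Cd300a-/-*, or 0.09 when centred and not past 0.5. *B2m*, which also pairs with class I molecules, was at 57.3, 47.5, 91.0 and 58.4 times *Fcgrt* in the same order of libraries.

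Other genes of Fc receptor biology were taken from lists, and their median log2 ratios stand against 0.04 (SiglecF hi) and -0.02 (SiglecF lo) for all genes between genotypes and 0.53 (WT) and 0.61 (*Cd300a-/-*) between subsets. Between genotypes 3.31% of all genes were higher and 3.46% lower in SiglecF hi neutrophils, and 16.4% were higher and 19.9% lower in SiglecF lo neutrophils. Of 13 other Fc receptors and receptor-like genes, 3 had a mean TPM over 10. *Fcrls*, an Fc receptor-like scavenger receptor, was the most abundant, at 204 and 199 TPM in the WT and *Cd300a-/-* SiglecF hi libraries and 75.6 and 79.7 TPM in the SiglecF lo libraries. Its log2 ratios between subsets were 1.42 in WT and 1.31 in *Cd300a-/-*, or 0.89 and 0.70 when centred, so it was high in the same libraries as *Fcgr2b*. *Fcer1a*, the ligand-binding chain of the high-affinity receptor for immunoglobulin E, was listed at 0 in every library, as were *Fcamr* and *Fcrl6*. None of the 3 tested genes was past 0.5 between genotypes, with medians of -0.03 and 0.08. Between subsets 2 were higher in SiglecF hi neutrophils of each genotype, with medians of 0.82 and 1.11, and 1 was when centred.

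The γ chain also serves other receptors. Of these, 9 genes in the files summed to 4327 and 4856 TPM in the WT and *Cd300a-/-* SiglecF hi libraries and 4892 and 4325 TPM in the SiglecF lo libraries, above *Fcer1g* in each. A mean TPM over 10 was found for 6, and they moved in both directions between subsets, with 1 higher and 2 lower in SiglecF hi neutrophils of WT and 2 higher and 3 lower in those of *Cd300a-/-* mice. Their medians were 0.27 and -0.09, and when centred 1 was higher in each genotype, while 2 (WT) and 3 (*Cd300a-/-*) were lower. *Clec4d*, a C-type lectin receptor for fungal and mycobacterial ligands, was the most abundant and lower in SiglecF hi neutrophils, with log2 ratios of -0.89 in WT and -0.77 in *Cd300a-/-*. *Clec4n*, which encodes Dectin-2, was higher, with 1.37 and 2.00, or 0.84 and 1.38 when centred. Between genotypes 2 were higher and 1 lower in SiglecF hi, and 1 higher and 1 lower in SiglecF lo neutrophils, with medians of 0.33 and -0.14. The lower gene was *Pira1*, at 32.1 and 0.037 TPM in the WT and *Cd300a-/-* SiglecF hi libraries and 23.1 and 2.40 TPM in the SiglecF lo libraries. *Pira2* was higher, by 0.65 and 0.56. These 2 genes belong to a family of similar copies and their values are uncertain. Among the other adaptors, *Tyrobp*, which encodes DAP12, was at 4928 and 4742 TPM in the WT and *Cd300a-/-* SiglecF hi libraries and at 6600 and 5451 TPM in the SiglecF lo libraries, above *Fcer1g* in each. *Hcst*, which encodes DAP10, was lower in *Cd300a-/-* than in WT cells of the SiglecF lo subset, at -0.78. The medians of the 2 tested adaptors were -0.19 and -0.53 between genotypes and -0.66 and -0.33 between subsets.

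Downstream of the activating receptors, 27 of 32 kinases and adaptors had a mean TPM over 10, with *Cdc42* the most abundant. Between genotypes 1 was lower and none higher in SiglecF hi neutrophils, with a median of 0.08. The lower gene was *Lat2*, a transmembrane adaptor, at -0.63. In SiglecF lo neutrophils 3 were higher and 1 lower in *Cd300a-/-*, with a median of 0.23. These 2 counts of the SiglecF lo comparison lay below its 16.4% and 19.9% of all genes. *Syk*, the kinase that binds the ITAM, had 164 TPM with WT and 251 TPM with *Cd300a-/-* SiglecF lo cells, and its ratio was 0.61. *Malt1*, a partner of CARD9 and BCL10, had a ratio of 1.02, and *Tec*, a cytoplasmic tyrosine kinase, one of -0.57. Between subsets 10 were higher and none lower in WT, and 7 were higher and 2 lower in *Cd300a-/-*. The medians of 0.29 and 0.24 lay under the 0.53 and 0.61 of all genes, and with centred ratios the direction turned, with 3 higher and 7 lower in WT and 0 higher and 11 lower in *Cd300a-/-*. *Pik3cb*, a catalytic subunit of phosphoinositide 3-kinase, was higher in SiglecF hi neutrophils at 1.22 and 0.85, but when centred (0.70 and 0.24) in WT alone.

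In the inhibitory pathway all 9 phosphatases and adaptors passed the limit, and *Ptpn6*, which encodes SHP-1, was the most abundant, between 384 and 464 TPM. None was past 0.5 between genotypes in SiglecF hi neutrophils, with a median of 0.06. In SiglecF lo neutrophils, with a median of 0.34, 2 (*Inppl1* at 0.54 and *Pag1* at 0.52) were higher in *Cd300a-/-* and 1 (*Dok1*) was lower. *Dok1*, an adaptor that restrains Ras signaling, was at 28.8 and 21.1 TPM in the WT and *Cd300a-/-* SiglecF hi libraries and 16.9 and 5.00 TPM in the SiglecF lo libraries, a log2 ratio of -1.58 in the latter subset. Between subsets 4 were higher and none lower in SiglecF hi neutrophils of WT, and 3 were higher and 2 lower in those of *Cd300a-/-* mice, with medians of 0.44 and 0.23, under those of all genes. Centred, 1 was higher and 2 lower in WT, and 2 were higher and 4 lower in *Cd300a-/-*.

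All 8 complement receptor and integrin genes had a mean TPM over 10, with *Itgb2* the most abundant. Between genotypes none was past 0.5 in SiglecF hi neutrophils, and 2 were higher in *Cd300a-/-* SiglecF lo neutrophils, *Itgam* at 0.58 and *Vsig4* at 0.84, with medians of 0.24 in both subsets. Between subsets 4 were higher and none lower in WT, and 4 were higher and 1 lower in *Cd300a-/-*, with medians of 0.46 and 0.55, against 3 higher and 3 lower in each genotype when centred. *C3ar1*, the receptor of the anaphylatoxin C3a, was higher in SiglecF hi neutrophils at 1.37 and 1.30, *Itgax* at 1.13 and 1.28, and *Vsig4* at 2.23 and 1.74, all past 0.5 when centred as well. The 9 immunoglobulin genes of the list were at 0 in each library, as were all 485 immunoglobulin and T cell receptor genes of the files. These values therefore say nothing about the ligands of the receptors.

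Markers of further cell types that carry Fc receptors were low. Of the 6 mast cell and basophil markers 5 were at 0 in every library (*Cpa3*, *Mcpt4*, *Tpsb2*, *Cma1* and *Mcpt8*), and the list, all of it *Kit*, summed to 1.15 TPM in the WT SiglecF lo and 13.2 TPM in the *Cd300a-/-* SiglecF lo library, the lowest and highest of the 4. The 5 NK cell markers, with *Gzma* the most abundant, summed to 2.64, 3.51, 2.89 and 0 TPM in the order used above, with *Eomes* and *Prf1* at 0.

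The genes nearest to each member were found by the Euclidean distance of log2(TPM + 1), centred per gene, over the 4 libraries. With so few libraries many genes lie close to any pattern, and the number within a distance of 0.25 was 39 for *Fcgr1*, 62 for *Fcgr4*, 234 for *Fcgr3*, 259 for *Fcgr2b*, 316 for *Fcer1g* and 417 for *Fcgrt*. The nearest 3 were *Med30*, *Ntan1* and *Fh1* for *Fcgr1*, at distances of 0.044 to 0.077. They were *Lsp1*, *Cd52* and *Oasl2* for *Fcgr4*, and *Cap1*, *Mpst* and *Rbm4* for *Fcgr3*. For *Fcgr2b* they were *St13*, *Tex10* and *Dgcr2*, and for *Fcer1g* *Fth1*, *Chmp3* and *Slc25a16*. *Sft2d2* and *Acd* lay at distances of 0.028 and 0.030 from *Fcgrt*. Among the members themselves the closest pair was *Fcer1g* and *Fcgr3*, at 0.30, followed by *Fcgr2b* and *Fcgrt*, at 0.40. *Fcgr2b* and *Fcgr4* were the most distant pair, at 1.79.

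*Fcgr2b* and *Fcgr4*, the members with the most unlike patterns, are neighbors in the genome. *Fcgr2b*, *Fcgr4*, *Fcgr3* and *Fcer1g* lie within 276 kb of chromosome 1, in a region with 11 genes of the files, and no other listed gene lies between *Fcgr2b* and *Fcgr3* except *Fcgr4*. Of the 7 genes that are not members, *Sdhc* and *Pcp4l1* had a mean TPM over 10. *Sdhc*, a subunit of succinate dehydrogenase, was at 0.72 in WT and 1.10 in *Cd300a-/-* in SiglecF hi against SiglecF lo neutrophils, but at 0.19 and 0.49 when centred, neither past 0.5. *Pcp4l1* was lower, at -1.78 and -0.74. With *Fcgr2b* higher and *Fcgr4* lower in SiglecF hi neutrophils relative to the median of all genes, position in the cluster did not go with 1 direction between subsets.

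**Figure D3:**
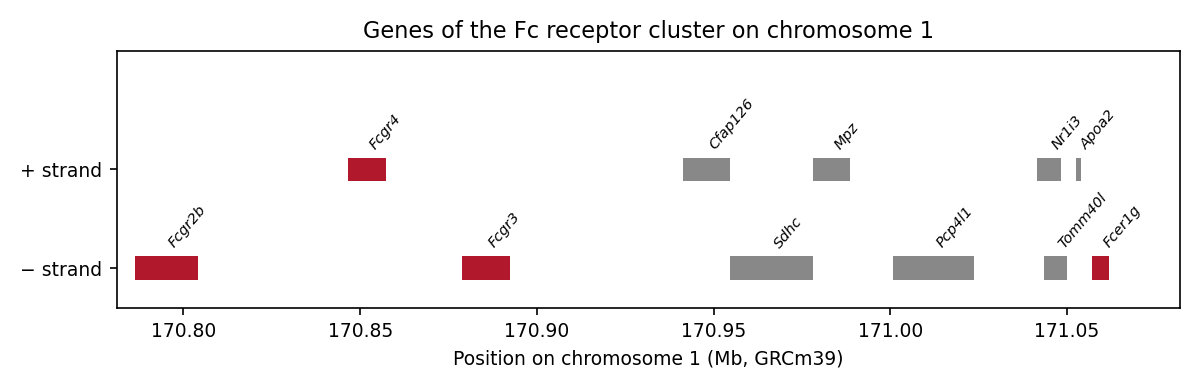
Genes of the files on chromosome 1 from *Fcgr2b* to *Fcer1g* (horizontal axis, position in Mb on GRCm39), drawn to scale on the plus and minus strands, with Fc receptor genes in red and other genes in gray. *Fcgr4* is the 1 member on the plus strand and lies between *Fcgr2b* and *Fcgr3*.

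The split into activating and inhibitory receptors rests on the ITAM and the ITIM, and the coding stretches of both are shown for this reason. Both were read from GENCODE M21 transcripts (GRCm38) and are on the minus strand, with tyrosine codons in capitals. The ITAM of *Fcer1g* takes bases 193 to 237 of a coding sequence of 258 bases and spans exons 4 and 5 of 5, between 171229889 and 171230072 on chromosome 1. The ITIM of *Fcgr2b* takes bases 949 to 966 of 1020, in exon 8 of 8, at chr1:170961071-170961088. All 4 coding transcripts of *Fcgr2b* hold these 18 bases somewhere in the transcript, and their reading frame in each was not checked. Counts per gene do not separate these transcripts.
*Fcer1g* ITAM: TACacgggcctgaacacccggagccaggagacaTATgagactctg
*Fcgr2b* ITIM: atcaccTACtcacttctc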

How the data were processed

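RNA-Seq of 4 libraries of sorted cardiac neutrophils was analysed, 1 per group, each from 8 hearts. According to the methods, hearts were digested with collagenase and DNase, cells were sorted on a FACSAria, and polyadenylated RNA went into NEBNext Ultra II libraries. Both read ends were sequenced on a NextSeq instrument, and CLC Genomics Workbench gave the expression values. For flow cytometry the methods name an antibody that blocks Fcγ receptors. The genome build, GRCm39, comes from the submitters' processing notes, and the mapping settings and annotation release are not given in the sources used here. The count deposited per gene is an integer and unscaled, and the sources do not state if reads or read pairs were counted. RPKM deposited by the authors is scaled by depth and transcript length, and the deposited TPM is scaled to a fixed sum. The signal deposited under the name CPM is the count scaled by depth and by 1 factor per library, the inverse of the TMM factor. RPKM was not used.

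Computed here were log2((TPM + 1) ratios) for genes with a mean TPM over 10, called past 0.5, and the TPM ratio of *Fcgr1*, *Fcgr3* and *Fcgr4* to *Fcgr2b* in each library. The 95% intervals carry the Poisson error of the counts (exact for levels). No molecular identifiers are named, so duplicates from amplification may make the true error larger. No test was run, since each group has 1 library. Alternatives were a pseudocount of 0.1, CPM scaled by TMM (edgeR 4.0.16) or by DESeq2 1.42.0 size factors in R 4.3.3, centring on the median of the genes tested, a mean TPM over 1, no filter, a TPM over 10 in both libraries and a threshold of 1. For the ratio they were counts without length and leaving out each activating receptor. The members, the 8 pathway lists and the 11 marker lists were chosen with earlier results of these data known. Named genes are the members, the most abundant gene of each pathway list, up to 3 of its genes with the largest ratios past 0.5 in each comparison (only some are described), up to 3 genes near each member, and *Cd300a* and *Siglecf*. *Ly6g* and the neighbors on chromosome 1 were added after values were seen. The scripts, tested on simulated data, used Python 3.11.15, numpy 2.4.6, pandas 2.3.3, scipy 1.17.1 and matplotlib 3.10.9.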

Additional observations from a re-analysis of the deposited data

Results flagged for a closer look

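For 3 members the log2 ratio of *Cd300a-/-* to WT had opposite signs in the 2 subsets, each with 1 library per group, as had 40.4% of all genes. The value of *Fcgr3* was 0.062 for SiglecF lo and -0.0077 for SiglecF hi cells. The value of *Fcgr4* was -0.30 for SiglecF lo and 0.0045 for SiglecF hi cells. The value of *Fcgrt* was -0.024 for SiglecF lo and 0.24 for SiglecF hi cells. In each pair 1 ratio had a counting interval that spans 0, so the opposite signs are not established (for *Fcgr3* -0.05 to 0.03 and for *Fcgr4* -0.06 to 0.07 in SiglecF hi, and for *Fcgrt* -0.17 to 0.12 in SiglecF lo cells). The sign of *Fcgr4* in SiglecF hi cells and of *Fcgrt* in SiglecF lo cells changed with the scaling. The differences, SiglecF lo minus SiglecF hi, were 0.07, -0.30 and -0.27 in this order, beyond counting error. Beyond that they were not tested, since no group has a replicate, and none of these ratios was past 0.5.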

How the results depend on the processing

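No paired analysis was possible because each group has 1 library, and for the same reason no library could be left out. The numbers of genes past 0.5 were 442 (*Cd300a-/-* against WT in SiglecF hi), 2367 (in SiglecF lo), 3873 (SiglecF hi against SiglecF lo in WT) and 4212 (in *Cd300a-/-*). In this order they were 1716, 5178, 7317 and 7619 with a mean TPM over 1, and 2674, 6476, 8813 and 8996 with no filter, where more genes were tested. They were 46, 611, 1520 and 1975 with a threshold of 1. A TPM over 10 in both libraries gave 1516 in the genotype comparison of SiglecF lo neutrophils, with 5078 genes tested. Other settings stayed within 1.5 times. The split of higher and lower genes in SiglecF hi against SiglecF lo neutrophils was 3386 and 487 in WT and 3692 and 520 in *Cd300a-/-* on the TPM scale. It was 1259 and 1363, and 1382 and 1540, when centred, 1309 and 1371, and 1580 and 1427, with TMM, and 1152 and 1549, and 1335 and 1654, with DESeq2 size factors.

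The log2 difference of the activating to inhibitory ratio between subsets stayed below 0 in both genotypes under all 4 alternatives. These alternatives could not turn its sign, since all kept *Fcgr2b* as the divisor. The log2 ratio of *Fcgr2b* between subsets, 1.16 in WT and 1.25 in *Cd300a-/-*, exceeded that of every activating receptor gene. In WT the difference was -1.67 without *Fcgr3* and -1.29 without *Fcgr4*, and in *Cd300a-/-* it was -1.55 without *Fcgr1* and -1.37 without *Fcgr4*. Between genotypes in SiglecF lo neutrophils it was -0.36 without *Fcgr3*, where the sum rests on *Fcgr1* and *Fcgr4*. The level of the ratio within a library depended more on the setting. In WT SiglecF hi neutrophils its log2 was 2.79 as reported, 1.60 from counts without length and 1.35 without *Fcgr3*. For WT SiglecF lo neutrophils these were 4.26, 3.01 and 3.02. With *Cd300a-/-* they were 2.78, 1.57 and 1.28 (SiglecF hi) and 4.23, 2.95 and 2.66 (SiglecF lo). Of 96 log2 ratios of members under the 4 alternatives, 13 changed sign, none of them past 0.5 as reported. With a pseudocount of 0.1 all 24 stayed within counting error. TMM scaling moved 12 of 24, and DESeq2 scaling and centring 14 each. The 12 ratios between subsets moved under each of these settings. Centring by definition subtracts the median of all genes there, 0.53 in WT and 0.61 in *Cd300a-/-*. Why these medians lie above 0 was not tested. Depth limits *Fcgrt* most, with 734 counts in WT SiglecF lo neutrophils.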

Other observations

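*Fcer1g* had the same number of counts, 10899, in both SiglecF lo libraries, whose totals of 9631901 and 10988619 differ, so the TPM differ at 2836 in WT and 2571 in *Cd300a-/-*. The other 5 members had unequal counts in these libraries.

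In SiglecF lo neutrophils the make-up of the activating sum differed between genotypes more than the sum did. The ratio of *Fcgr3* to *Fcgr2b* was 11.0 (10.5 to 11.6) in WT and 12.5 (11.9 to 13.2) in *Cd300a-/-*, while that of *Fcgr1* was 1.95 (1.83 to 2.08) and 0.90 (0.83 to 0.97). The summed ratio was 19.1 and 18.8.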
